A study of Arabidopsis thaliana with 4 samples.

Results

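Nuclear genes for photosystem subunits, thylakoid lumen proteins and the chloroplast NDH complex were followed in Arabidopsis thaliana seedlings of the add3 mutant (ARRESTED DEVELOPMENT 3) and of wild type. The list held 56 loci, listed by locus after the protein's place or complex, with earlier results of these data known, and the gene table places all 56 on nuclear chromosomes. A probe set annotated to that gene alone was found for 26 of them, 1 probe set for each, and the other 30 loci were not analysed here. The 26 were among 22746 non-control probe sets of the array.

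RNA came from the above-ground seedling (cotyledons, hypocotyl, first true leaves, leaf primordia and meristem) at stage 1.02. Plants of both groups grew on a peat mix at 29 °C under continuous light (24 h a day), after 4 days at 4 °C. The add3 plants carried an EMS-induced mutation and came from Col-3 gl1, a line without leaf hairs owing to its gl1 allele, and the wild-type plants were Col-0. The mutation, the gl1 allele and the Col line therefore differed together between the groups and cannot be told apart. Each group had 2 samples, each hybridised to 1 Affymetrix ATH1 array. The labels do not say whether they came from separate plantings, so the spread between the 2 samples of a group may be technical. Every limma p-value and interval rests on spreads of this kind, the gene's own and those of the other tested probe sets.

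Photosystems II and I are pigment-protein complexes of the thylakoid membrane that move electrons from water to ferredoxin. The chloroplast NDH complex returns electrons from ferredoxin to plastoquinone, and it binds photosystem I. All these complexes are built from subunits of both genomes: the plastid encodes most reaction-centre and membrane cores, and the nucleus encodes small subunits, antenna proteins and the assembly factors of the thylakoid lumen, the space enclosed by the membrane. Light and signals from the chloroplast are known to control the nuclear genes together.

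Values are MAS5 signals on a linear scale as deposited, and every array has the same trimmed mean of 100, which points to 1 scaling factor an array. Median signals were 48.4 and 48.2 on add3 replicates 1 and 2, and 52.1 and 51.4 on the wild-type arrays. The highest bacterial control that read as background lay between 12.3 and 25.4 on the 4 arrays, while the lowest signal of any of the 26 genes was 66.1 and the highest 2711, so all 26 were above background on all 4 arrays. Of the marker genes listed for green shoot tissue, RCA, the Rubisco activase gene, was the single gene measured, with signals of 3521 and 3068 in wild type and 3086 and 3537 in add3. Of 14 root markers 2 root hair expansin genes were measured, both dim. EXPA7 had 26.8 and 17.9 in wild type and 12.1 and 5.87 in add3. EXPA18 had 5.16 and 29.0 in wild type and 30.4 and 31.5 in add3. The background level was 20.5 and 13.0 in wild type and 25.4 and 12.3 in add3. EXPA7 exceeded it on the wild-type arrays alone, and EXPA18 on every array except wild-type replicate 1. The other listed green tissue and root markers, and all those of meristem and leaf hairs, were not analysed here. A 5S ribosomal RNA control read 39.5 and 38.0 in add3 against 182 and 78.0 in wild type. Signal ratios of the 3' to the 5' end of actin differed between arrays. In the first set of actin controls they were 5.47 and 7.18 in add3 and 5.04 and 7.23 in wild type. In the second set they were 3.10 and 3.17 in add3 and 4.49 and 2.71 in wild type. The part of these controls in the results below was not tested. The number of arrays limits the precision of every value.

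**Figure D1:**
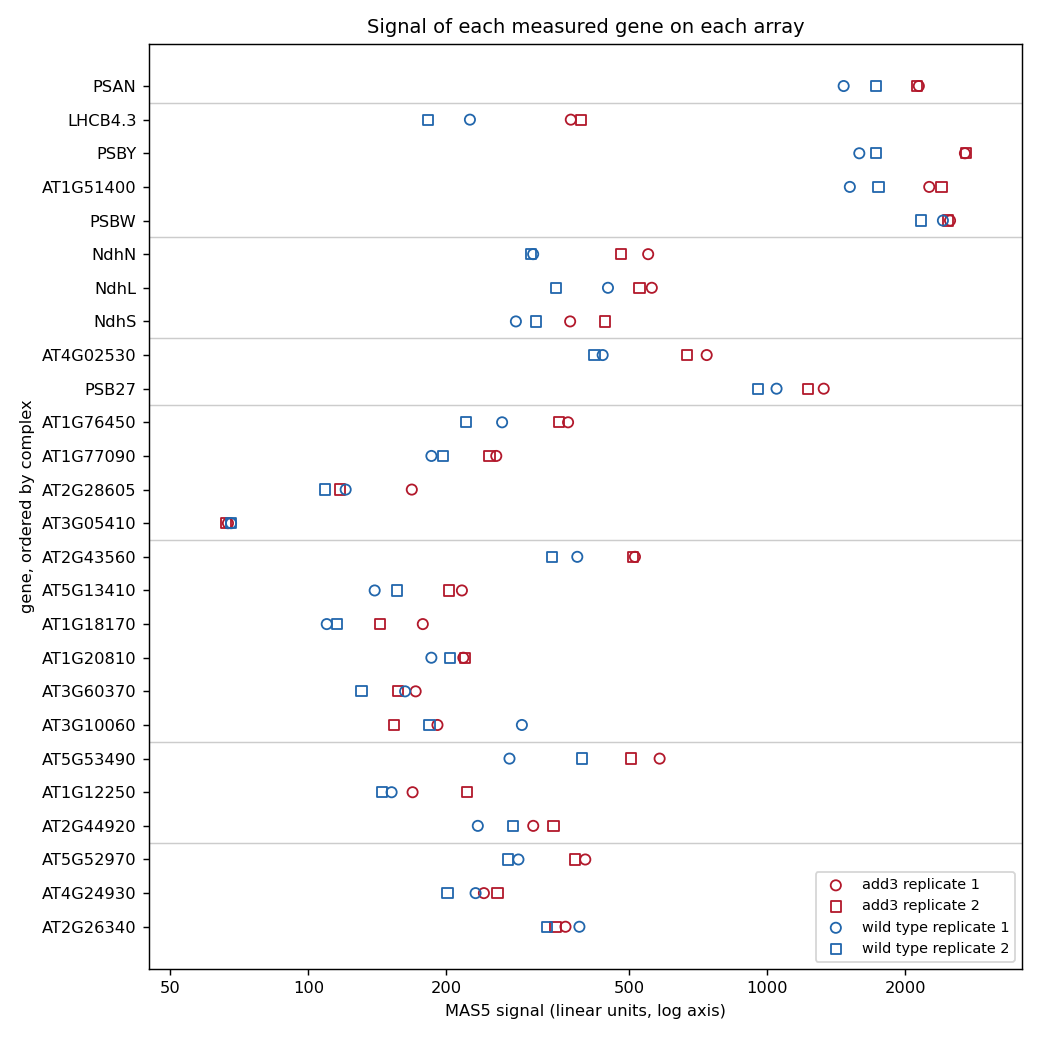
MAS5 signal (log axis, linear units) of the 26 measured genes on each of the 4 arrays, with red symbols for add3, blue symbols for wild type, circles for replicate 1 and squares for replicate 2, and grey lines between complexes. Both red symbols lie to the right of both blue ones for 21 of the 26 genes.

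The genes as a set were higher in the mutant by a modest amount. In 21 of the 26 both add3 arrays lay above both wild-type arrays, which was so for 24.8% of all 13648 tested probe sets. In 1 gene both lay below, against 32.3% of all tested, and 4 genes overlapped. On the scale of log2(signal + 12.5), the median difference, add3 minus wild type, was 0.42 over the 26 genes and -0.05 over all tested probe sets, and 23 of the 26 estimates were above 0, against 44.1% of all tested. Of the 26, 20 exceeded the upper quartile of all tested probe sets (0.18), and 12 were among the top 10 percent. Among the 9626 tested probe sets at least as bright as the dimmest gene of the list, the median was -0.03, and in 28.0% both add3 arrays lay above both wild-type arrays. In these bulk samples more cells with chloroplasts and more RNA per cell cannot be told apart.

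**Figure D2:**
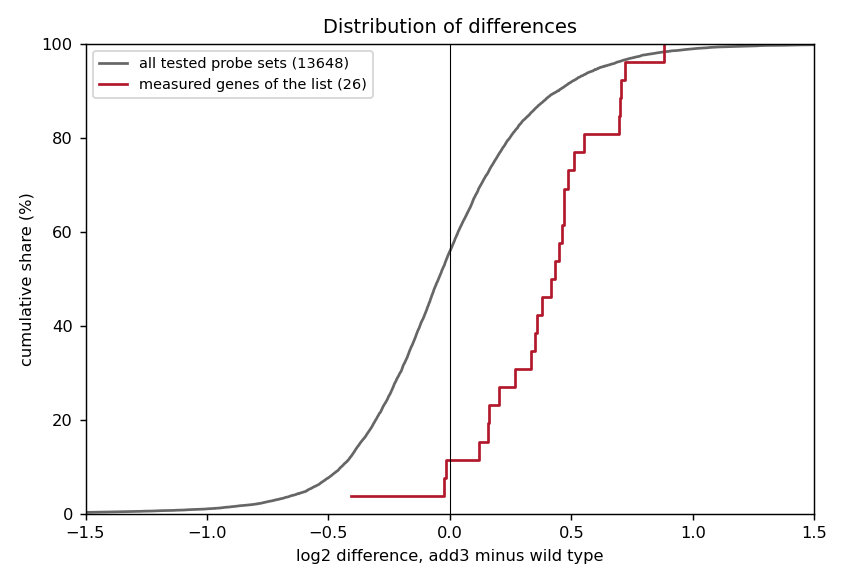
Cumulative share (%) of log2 differences, add3 minus wild type, for all 13648 tested probe sets (grey) and the 26 measured genes (red steps). The red curve lies to the right over nearly its whole length, with medians of 0.42 and -0.05.

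Each pair of an add3 and a wild-type array gave a median of this sign over the 26 genes, from 0.35 (add3 replicate 2 against wild-type replicate 2) to 0.42 (both replicates 1). The median signed difference, replicate 1 minus replicate 2, was 0.06 in add3 and 0.06 in wild type. Genes that go opposite ways cancel in these medians. Regardless of sign, the median difference between replicates over the 26 genes was 0.09 in add3 and 0.15 in wild type. Limma was fitted over all 13648 tested probe sets with Benjamini-Hochberg adjustment. At an adjusted p under 0.05, 5 of the 26 genes rose and none fell. Of all tested probe sets 4.17% rose and 3.14% fell, and of those at least as bright as the dimmest gene of the list 5.56% rose. An unadjusted limma p under 0.05 was found for 17 of the 26 genes and for 3592 of the 13648 tested probe sets. For a single gene on its own, an exact permutation of the 4 arrays cannot give a two-sided p below 0.333.

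**Figure D3:**
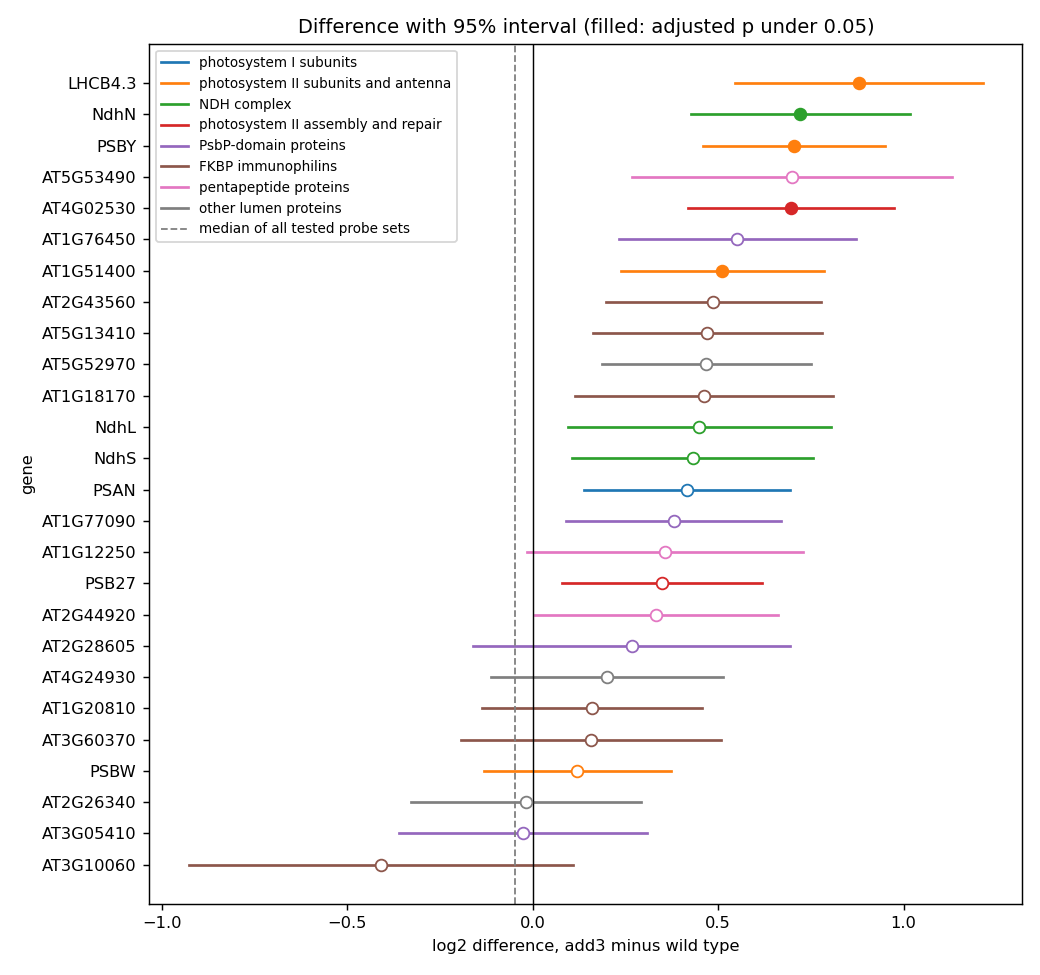
Log2 difference, add3 minus wild type, of each of the 26 genes with its unadjusted 95% interval from limma, coloured by complex, filled where the adjusted p was under 0.05. LHCB4.3 (0.88) stands highest and AT3G10060 (-0.41) lowest, and the dashed line marks the median of all tested probe sets (-0.05).

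In photosystem II 3 of the 4 measured genes, among 6 listed, rose past the threshold, where 4.17% of all tested probe sets rose. The median difference of the 4 was 0.61. Photosystem I had 1 of 8 listed genes measured and the NDH complex 3 of 13, so such counts do not rank the complexes. LHCB4.3 encodes an isoform of CP29, a minor antenna protein that links the main light-harvesting trimers to the photosystem II core. Its signals were 225 and 182 in wild type and 373 and 393 in add3, so that the groups lay far apart, the closest pair of arrays differing 1.66-fold. The log2 difference was 0.88 (SE 0.14, limma adjusted p = 0.0184). Leaving out 1 array leaves a lone sample in its group, which is assumed to vary like the 2 of the other group, so such values say little of stability. LHCB4.3 was past the threshold in each of these 4 fits, with limma adjusted p-values between 0.0296 and 0.0479.

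The other CP29 genes, LHCB4.1 and LHCB4.2, are not on the list but were measured too. LHCB4.1 had signals of 3414 and 2980.2 in wild type and 3286 and 3578 in add3. LHCB4.2 had 1684 and 2102 in wild type and 2068 and 2275 in add3. In both of these genes the groups overlapped, with log2 differences of 0.10 (SE 0.11) and 0.20 (SE 0.14) and limma adjusted p-values of 0.603 and 0.382. The ratio of LHCB4.3 to LHCB4.1 was higher in add3 by 0.78 on the log2 scale, with arrays at 0.80 and 0.75 in add3 against 0.05 and -0.05 in wild type. The ratio to LHCB4.2 was higher by 0.68, with arrays at 0.71 and 0.64 against 0.30 and -0.30. Groups did not overlap in either ratio, but both ratios hold the same LHCB4.3 values again and are not separate evidence. Each exact permutation p was 0.333, the smallest that 4 arrays allow, so it could not decide.

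PSBY encodes a small photosystem II protein found near cytochrome b559. Its signals rose from 1588 and 1726 in wild type to 2697 and 2711 in add3 (log2 difference 0.70, SE 0.10, limma adjusted p = 0.0157). The add3 arrays nearly coincided and exceeded the wild-type arrays by at least 1.56-fold. AT1G51400, which encodes a protein of the small photosystem II 5 kDa family, had signals of 1514 and 1749 in wild type and 2255 and 2397 in add3. It rose by 0.51 on the log2 scale (SE 0.12, limma adjusted p = 0.0452), and of the 5 rises it lay nearest to the threshold. PSBW, a subunit that stabilises photosystem II supercomplexes, had 2415 and 2167 in wild type and 2503 and 2474 in add3. The PSBW groups were separate by as little as 1.02-fold, and the difference of 0.12 had a 95% interval from -0.13 to 0.37 (limma adjusted p = 0.515). It was 0.20 without wild-type replicate 1 and 0.043 without wild-type replicate 2. Among these bright genes the increase was thus unequal, from 8.61% for PSBW to 63.2% for PSBY in mean signal.

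The call of PSBY was lost without add3 replicate 1 (limma adjusted p = 0.0648) or 2 (0.0659). That of AT1G51400 was lost without add3 replicate 1 (0.149), add3 replicate 2 (0.229) or wild-type replicate 1 (0.0812), with the replicate block (0.0791), with quantile normalization (0.0599) and without a variance trend (0.0938). With no filter on low signals, none of the 5 rises passed (limma adjusted p = 0.0605 to 0.144). In that fit 13 of all 22746 probe sets passed. An unadjusted limma p under 0.05 was then found for 17 of the 26 genes and for 4143 of the 22746 probe sets.

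Photosystem I was represented by 1 of 8 listed genes. PSAN encodes a lumenal subunit that helps plastocyanin to dock. Its signals were 1468 and 1729 in wild type and 2140.4 and 2119 in add3. Both add3 arrays were higher, by at least 1.23-fold, and the difference of 0.42 (95% interval 0.14 to 0.69) did not pass the threshold (limma adjusted p = 0.0793). PSAN was called without wild-type replicate 2 (limma adjusted p = 0.0386) and with scaling of the arrays to 1 median.

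In the NDH complex 3 of 13 listed genes were measured. In all 3 both add3 arrays lay above both wild-type arrays, which was so for 24.8% of all tested probe sets. NdhN encodes a subunit of the part of the complex that faces the stroma. Its signals rose from 309 and 305 in wild type to 550.3 and 481 in add3 (log2 difference 0.72, SE 0.13, limma adjusted p = 0.0232). The wild-type arrays agreed within a few units, and the lower add3 array was 1.56-fold above the higher of them. NdhL encodes a membrane subunit that anchors this part. Its signals were 449.8 and 346 in wild type and 560.4 and 527 in add3, with a log2 difference of 0.45 (95% interval 0.10 to 0.80, limma adjusted p = 0.117), which was 0.27 without wild-type replicate 2. NdhS, which provides a binding site for ferredoxin, had signals of 283 and 313 in wild type and 372 and 443 in add3, with a log2 difference of 0.43 (95% interval 0.11 to 0.76, limma adjusted p = 0.106). NdhL and NdhS were 36.6% higher in mean signal and NdhN 67.9%. The call of NdhN was lost without add3 replicate 1 (limma adjusted p = 0.114). The 2 genes listed for cyclic electron flow through PGR5 were not analysed here, and PGRL1B, a close relative of the listed PGRL1A, had overlapping groups (152 and 183 in wild type, 223 and 179.5 in add3).

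Both measured lumen genes listed for assembly and repair of photosystem II were higher on both add3 arrays, as were 24.8% of all tested probe sets. AT4G02530 encodes a thylakoid lumen protein. Its signals rose from 438 and 421 in wild type to 738 and 669.9 in add3 (log2 difference 0.70, SE 0.12, limma adjusted p = 0.0218). The groups lay at least 1.53-fold apart, and replicates of a group were close. PSB27, a lumenal factor that binds photosystem II during its assembly, had signals of 1048 and 955 in wild type and 1328 and 1228 in add3. Its difference was 0.35 (95% interval 0.08 to 0.62, limma adjusted p = 0.113). The call of AT4G02530 was lost without add3 replicate 1 (limma adjusted p = 0.111) or 2 (0.0553).

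The remaining lumen genes belong to families named here from general knowledge of the loci, since the annotation gives a locus alone. None of these 16 genes passed the threshold, where 4.17% of all tested probe sets rose and 3.14% fell. No call among 16 genes is near those shares and does not set these families apart. PsbP-domain proteins resemble a subunit of the oxygen-evolving complex, and 4 of 7 listed were measured, with a median of 0.32, or 0.19 without add3 replicate 1. AT1G76450 had 264 and 221 in wild type and 368 and 352 in add3, a difference of 0.55 (95% interval 0.23 to 0.87), and its limma adjusted p of 0.0551 was the closest to the threshold from outside. AT1G77090 had 185 and 197 in wild type and 257 and 248 in add3 (difference 0.38, limma adjusted p = 0.109). AT2G28605 overlapped between the groups, since add3 replicate 2 read 117 against 168 on replicate 1, and wild type read 121 and 109. Its difference of 0.27 was 0.027 without add3 replicate 1 and 0.51 without add3 replicate 2. AT3G05410 was level, with 67.9 and 68.0 in wild type and 66.8 and 66.1 in add3, and it was the 1 gene of the 26 with both add3 arrays below both wild-type arrays (difference -0.03, 95% interval -0.36 to 0.31). Its sign turned with scaling of the arrays to 1 median (0.06) and with quantile normalization (0.04).

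FKBP immunophilins are peptidyl-prolyl isomerases, many of which sit in the lumen, and 6 of 8 listed were measured, with a median of 0.31. AT2G43560 had the highest estimate, from 386 and 339.6 in wild type to 515 and 509 in add3 (difference 0.49, 95% interval 0.20 to 0.78, limma adjusted p = 0.0589). AT5G13410 and AT1G18170 had differences of 0.47 and 0.46, and their groups did not overlap. AT1G20810 and AT3G60370 had 0.16 each, the first with separate groups and the second with overlapping ones. Without wild-type replicate 1 these were 0.095 and 0.30, and AT3G60370 had 0.099 without add3 replicate 1 and 0.012 without wild-type replicate 2. AT3G10060 was the 1 gene of the list with an estimate well below 0. Its signals were 292 and 184 in wild type and 191 and 154 in add3, so that the groups overlapped, and the difference was -0.41 with a wide 95% interval from -0.93 to 0.11 (limma adjusted p = 0.287). Without wild-type replicate 1, the brightest of its 4 arrays, the difference was -0.09, and it was -0.73 without wild-type replicate 2 and -0.26 without add3 replicate 2.

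Pentapeptide proteins of the lumen carry a repeated motif of unknown function in plants. All 3 listed genes were measured, with a median of 0.36, or 0.54 without add3 replicate 1. In all 3 both add3 arrays lay above both wild-type arrays, as in 24.8% of all tested probe sets. AT5G53490 had 274 and 396 in wild type and 583 and 506 in add3. Its difference of 0.70 (95% interval 0.27 to 1.13) was close to that of PSBY, but its wild-type arrays were unlike each other, and the limma adjusted p was 0.0652. It was called without wild-type replicate 2 (difference 0.95, limma adjusted p = 0.028), and the difference was 0.44 without wild-type replicate 1 (0.135). AT1G12250 had 152 and 145 in wild type and 169 and 222 in add3 (difference 0.36, limma adjusted p = 0.206), which was 0.17 without add3 replicate 2 and 0.54 without add3 replicate 1. AT2G44920 had 234 and 279 in wild type and 309 and 342 in add3 (difference 0.33, limma adjusted p = 0.183), which was 0.21 without wild-type replicate 1.

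Of the 3 other lumen proteins, AT5G52970 stood apart from wild type, with 287 and 272 there and 401 and 382 in add3 (difference 0.47, 95% interval 0.19 to 0.75, limma adjusted p = 0.0607). AT4G24930 had 231 and 201 in wild type and 241 and 258 in add3 (difference 0.20, limma adjusted p = 0.382), with groups that just separated, and its difference was 0.10 without wild-type replicate 2. AT2G26340 had 389.7 and 331 in wild type and 363 and 346 in add3, both add3 arrays falling between the wild-type ones. Its difference was -0.02 (95% interval -0.33 to 0.29), with a sign that turned under 3 alternatives, among them scaling of the arrays to 1 median (0.08).

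**Figure D4:**
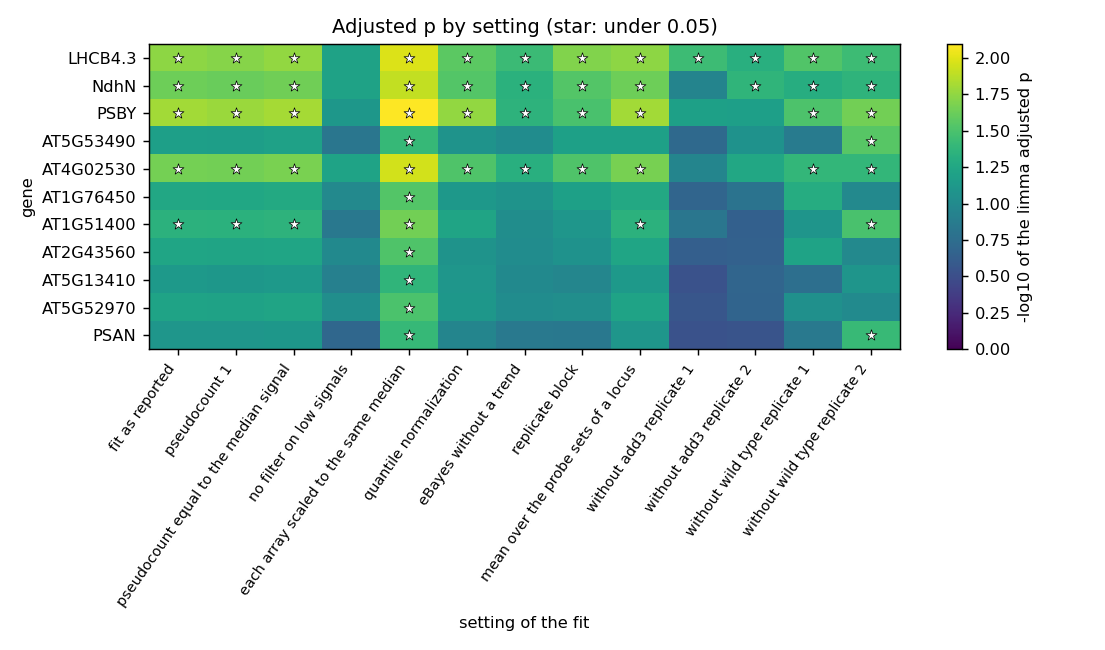
Minus log10 of the limma adjusted p (colour) for the 11 genes with an adjusted p under 0.05 (star) in any of the 13 settings of the fit, genes in order of their difference. LHCB4.3 has a star in all settings except that with no filter on low signals, and scaling the arrays to 1 median gives stars to all 11.

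With the arrays scaled to 1 common median, 11 of the 26 genes passed the threshold and the median over the 26 was 0.52. All tested probe sets shifted with them, from a median of -0.05 to 0.04, and the split of calls moved from 569 higher and 428 lower to 937 higher and 319 lower. Measured against the median of all tested probe sets, the 26 genes stood 0.47 higher as deposited, 0.48 higher with median scaling and 0.39 higher with quantile normalization.

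Brightness and difference were set side by side within the 26 genes. Across genes, which are not independent replicates and share the same 4 arrays, the log2 difference and the log2 mean signal had a Pearson r of 0.31 and a Spearman rho of 0.41 (n = 26). LHCB4.3 and NdhN, both of middling signal, were higher in the order of differences than the bright genes PSBW and PSAN.

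Other nuclear genes of the same complexes were counted from a list of 48 loci, of which 7 had a probe set of their own. None of the 7 passed the threshold in limma, where 4.17% of all tested probe sets rose. No call among 7 genes is near that share. An unadjusted limma p under 0.05 was found for 1 of the 7, and for 3592 of the 13648 tested probe sets. The median difference of the 7 was 0.16, against -0.05 over all tested. Estimates were above 0 in 6 of the 7, against 44.1% of all tested. Both add3 arrays lay above both wild-type arrays in 24.8% of all tested probe sets and below them in 32.3%. Groups overlapped in 6 of the 7, ATPC1, the gamma subunit gene of the chloroplast ATP synthase, being the exception (2242 and 2129 in wild type, 2581 and 2599 in add3, limma adjusted p = 0.179). PSAE-1, a stromal photosystem I subunit gene, had 2911 and 2194 in wild type and 2910.4 and 2742 in add3.

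The plastid-encoded partners of these subunits had medians on the other side of 0, with unequal add3 arrays. Over all those measured, the median relative to the wild-type mean was -0.317 and -0.085 on add3 replicates 1 and 2. It was 0.093 and -0.093 on wild-type replicates 1 and 2, so add3 replicate 2 lay within the wild-type range. Of 42 psa, psb, pet, atp and ndh genes, 5 fell and none rose in limma, where 3.14% of all tested probe sets fell, and the median was -0.18, against -0.05 over all tested. With the arrays scaled to 1 median, 4 fell and the median was -0.082, against 0.04 over all tested. For photosystem II the 15 plastid psb genes had a median of -0.21, beside 0.61 for the 4 nuclear genes of the list. These 4 leave out LHCB4.1 and LHCB4.2, nuclear antenna genes outside the list, with smaller differences of 0.10 and 0.20. Relative to the wild-type mean, the median on add3 replicates 1 and 2 was 0.58 and 0.63 for the 4 nuclear genes. For the plastid psb genes it was -0.33 and -0.14. On wild-type replicates 1 and 2 it was 0.01 and -0.01 for these nuclear genes and 0.11 and -0.11 for the plastid genes. The 4 psb genes that fell were psbE, psbF, psbL and psbJ, which are known to be transcribed together in the plastid. Among them psbE, for a subunit of cytochrome b559, had signals of 4168 and 3842 in wild type and 1642 and 1841 in add3 (log2 difference -1.20, SE 0.11, limma adjusted p = 0.00713), where the nuclear PSBY rose.

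For the NDH complex the 10 plastid ndh genes had a median of -0.27, beside 0.45 for the 3 nuclear genes of the list. Relative to the wild-type mean, add3 replicates 1 and 2 had medians of 0.49 and 0.55 for the nuclear genes. For the plastid ones they were -0.47 and -0.09. Wild-type replicates 1 and 2 had 0.01 and -0.01 for the nuclear genes and 0.06 and -0.06 for the plastid ones. The size of the plastid value thus differed between the add3 arrays, and that of replicate 2 was close to wild type. One ndh gene fell, ndhG, with signals of 1273 and 1008 in wild type and 571 and 762 in add3 (limma adjusted p = 0.0455). Its call was lost without add3 replicate 1 (0.169) or wild-type replicate 1 (0.128), with the replicate block (0.0523), with the arrays scaled to 1 median (0.0522) and without a variance trend (0.0761), and that of psbJ without add3 replicate 1 (0.0599). Without add3 replicate 1 the median of the 42 plastid genes was -0.09 with 3 falls, and without wild-type replicate 1 it was -0.12 with 4 falls. It was -0.32 with 7 falls without add3 replicate 2, and -0.30 with 9 falls without wild-type replicate 2. With no filter on low signals none of the 42 passed in limma, where 8 of all 22746 probe sets fell and 5 rose. The difference between nuclear and plastid-encoded genes was not itself tested. Most plastid transcripts lack a long poly(A) tail, and whether the labelling of RNA differed between the samples was not tested.

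**Figure D5:**
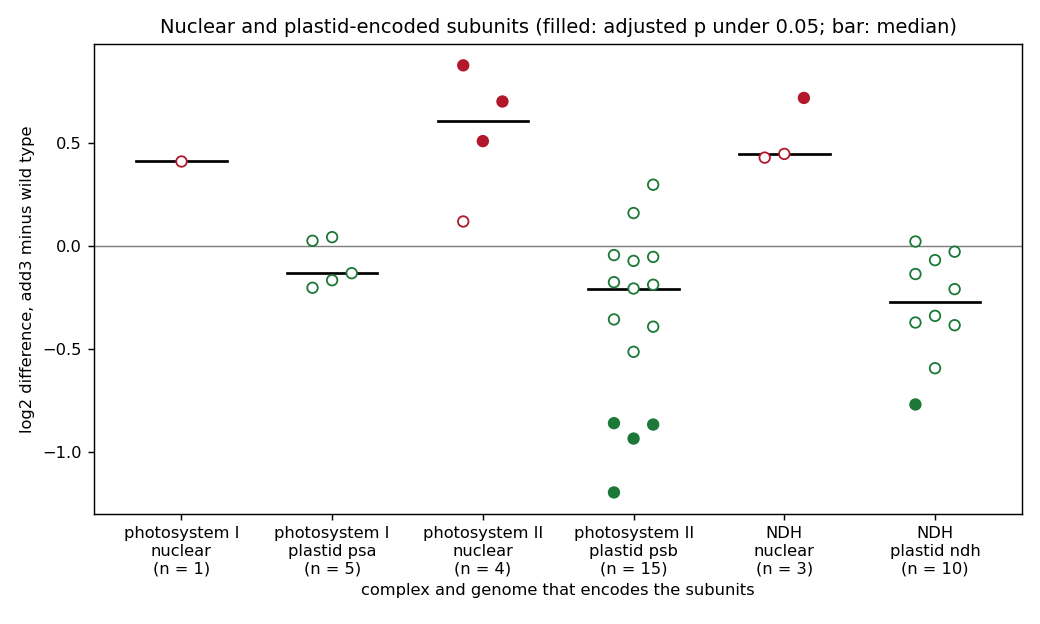
Log2 difference, add3 minus wild type, of nuclear (red) and plastid-encoded (green) genes of photosystem I, photosystem II and the NDH complex, 1 point a gene, filled where the limma adjusted p was under 0.05, with a bar at the median. The nuclear genes, those of the list alone, lie above 0 in each complex, and the plastid medians are -0.13, -0.21 and -0.27. LHCB4.1 (0.10), LHCB4.2 (0.20) and PSAE-1 (0.16), which are outside the list, are not drawn.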

How the data were processed

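The authors deposited a MAS5 signal intensity for every probe set on each array, in linear units. MAS5 is named in the submitters' processing notes, and its version is not given in the sources used here. Sample titles gave the groups and replicate numbers. After removal of 64 control probe sets, 13513 had 1 gene in the platform annotation, 503 had several and 8730 had none. Names and genomes came from the TAIR10.1 gene table, which held 13436 of the single-gene probe sets. Where a locus had several, the brightest stood for it. The highest of 27 unspiked bacterial controls served as background level on an array.

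The analysis used log2(signal + 12.5), the added value being 0.25 of the median signal, so changes of dim genes are understated. Tests ran in limma 3.58.1 (R 4.3.3) on the 13648 probe sets whose mean signal reached the 40th percentile (33.2), all 26 genes among them. The fit had 2 residual degrees of freedom and a variance trend on intensity, p-values were two-sided and Benjamini-Hochberg adjusted, and the threshold was 0.05. The procedure was first tested on simulated data. Genes, lists and families were chosen with earlier results of these data known, so no list has a test of its own, and any measured gene of the list could be named. Settings varied were the pseudocount, filter, scaling, variance trend, averaging of probe sets, a replicate block and the arrays included. A planned description of promoter motifs was not made.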

Additional observations from a re-analysis of the deposited data

How the results depend on the processing

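The number of genes of the list that rose was 5 as reported, 0 with no filter on low signals and 11 with the arrays scaled to 1 median, and 1 to 7 when 1 array was left out (1 without add3 replicate 1, 2 without add3 replicate 2, 7 without wild-type replicate 2). None fell under any of the 12 alternatives. The median over the 26 genes was 0.38 with a pseudocount equal to the median signal, 0.52 with median scaling, 0.38 with quantile normalization, and 0.39 to 0.45 when 1 array was left out. Over all tested probe sets, 5 rose and 8 fell with no filter (4143 had an unadjusted p under 0.05), 937 rose with median scaling, 308 rose and 247 fell without a variance trend, and 232 to 506 rose and 205 to 311 fell when 1 array was left out. The cause of these changes was not tested. The sign turned for AT3G05410 with median scaling (0.057) and quantile normalization (0.039), and for AT2G26340 with median scaling (0.077) and on leaving out 1 array, where it ranged from -0.13 without wild-type replicate 2 to 0.095 without wild-type replicate 1, with 0.016 without add3 replicate 2. No label says that equal replicate numbers mark a shared batch, and deviations of equal numbers correlated at -0.12 over tested probe sets. With the replicate number as a block, 4 of the 26 genes rose (LHCB4.3, PSBY, NdhN and AT4G02530), and 878 probe sets were called in place of 997. Every gene of the list was above background on every array, and 2 arrays a group limit the precision.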
